A study of Mus musculus with 7 samples.

Results

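Ly6G+ bone marrow cells that carried both a RUNX1 mutation and HMGA2 overexpression were compared with Control Ly6G+ cells, and each gene's log2 ratio was set beside the sum of the log2 ratios of the single genotypes. The comparison rests on 2 of the 7 libraries of the series, 1 a side, and the sum draws on the 2 single-genotype Ly6G+ libraries as well. Of 28987 genes in the table, the 11053 with 1 TPM or more (a share of all transcripts, corrected for length) in the double-genotype or the Control library were counted. All mice were C57BL/6, each library came from an individual mouse per the labels' protocol, and Ly6G+ mutant myeloid cells were sorted by flow cytometry. The genotypes used here were Control, HMGA2-OE, RUNX1mut and the double RUNX1mut/HMGA2-OE, each with 1 Ly6G+ library. The RUNX1mut/HMGA2-OE pair of hematopoietic stem and progenitor (HSC/P) libraries, the only replicates, served only to show a replicate spread. The kind of RUNX1 mutation, the promoter behind HMGA2-OE, the marker of the mutant clone, what the Control mice carried and the ages of the mice are not stated in the labels.

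HMGA2 is a chromatin architectural protein of stem and embryonic cells that binds AT-rich DNA, and its RNA is a target of the let-7 microRNAs. RUNX1 is a transcription factor that binds DNA together with its partner CBFB and is needed for definitive blood formation and for myeloid, platelet and lymphoid maturation. Ly6G marks mouse neutrophils, which make primary granules with myeloperoxidase and serine proteases as promyelocytes, then secondary and tertiary granules, and at the end large amounts of calprotectin (S100a8 with S100a9).

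With 1 library a genotype no difference has an error or a test. The departure from additivity, the double-genotype log2 ratio minus the sum of the single ratios, uses all 4 libraries and leaves nothing from which to estimate a spread. All 3 ratios share the Control library, which enters a ratio with a minus sign and the departure with a plus sign. Levels are given as scaled TPM, TPM after division by a factor per library, and ratios and departures as log2 of scaled TPM with 1 TPM added, which understates the change of low genes. The scaling mattered: S100a8 alone took 44.3% of the listed TPM in Control, 55.01% in HMGA2-OE and 40.2% in RUNX1mut, against 3.11% in the double library. Without scaling, the median of all counted genes was 0.73 above Control and its departure was 0.87, and with upper-quartile scaling the same medians were 0.22 and 0.23, whereas under the scaling used here they were 0.03 and 0.02. In the double library 10763 genes reached 1 TPM, against 8559 to 9670 in the others, and read depth is unknown.

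Hmga2 followed the labels, and Runx1 was higher in both libraries labelled RUNX1mut, a label that sets no direction for its level. Hmga2 (ENSMUSG00000056758, mm10 chromosome 10, 120361275 to 120476469, minus strand) was at 1.63 scaled TPM in Control, 5.34 in HMGA2-OE, 1.35 in RUNX1mut and 7.54 in the double library. The log2 ratio of the double library was 1.70, with a departure of 0.59, so its level was high in both Ly6G+ libraries labelled HMGA2-OE and low in both without it. Runx1 (ENSMUSG00000022952, mm10 chromosome 16, 92601466 to 92826149, minus strand) was at 4.33 scaled TPM in Control, 4.83 in HMGA2-OE, 11.5 in RUNX1mut and 13.3 in the double library, with a ratio of 1.42 and a departure of 0.06. Introduced, mutant and endogenous transcripts are not separated in the table. The relatives of Runx1 were higher in the double library too: Runx2 was at 4.99 scaled TPM in Control, 5.92 in HMGA2-OE, 5.53 in RUNX1mut and 15.7 in the double library, and Runx3 was at 1.85 scaled TPM in Control, 2.59 in HMGA2-OE, 14.2 in RUNX1mut and 44.5 in the double library. Their departures were 1.15 and 1.25, whereas Cbfb, the partner that the RUNX proteins share, had a ratio of 0.05. Runx1, Runx2, Runx3 and Cbfb each have an annotated transcript under 500 nt, a class treated below, and reads shared between relatives were not examined. Among the 10 counted genes of the HMGA2 and let-7 list, 3 were at least 2-fold higher in the double library. Of the 5 whose annotated transcripts are all 500 nt or longer 1, Hmga2 itself, was 2-fold higher and none lay 2-fold above the sum. Igf2bp2, an RNA-binding protein whose transcription HMGA2 is known to raise, has a transcript of 350 to 420 nt. It was at 0.188 scaled TPM in Control, 4.23 in HMGA2-OE, 0.0780 in RUNX1mut and 18.5 in the double library, which was 2.04 above the sum.

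At a 2-fold threshold, 825 of 11053 genes (7.46%) were higher in the double library than in Control and 693 (6.27%) were lower. Higher genes thus made up 54.3% of those past the threshold, a share that was 88.6% without scaling, 64.6% with upper-quartile scaling and 64.2% with 0.1 TPM added in place of 1. Lower genes outnumbered higher ones with 5 TPM added (43.9% higher), at a 4-fold threshold (43.4%) and over genes with 1 TPM or more in all 4 libraries (47.99%). Against the sum of the single ratios, 820 genes (7.42%) lay 2-fold or more above and 541 (4.89%) lay 2-fold or more below. These shares are the background beside which the counts of each gene list below stand. Genes past 2-fold in the double library alone, with both single ratios within 0.5 of 0, numbered 202 higher (1.83%) and 27 lower (0.244%). As a measure of spread, 6.86% of 13017 genes differed 2-fold or more between the RUNX1mut/HMGA2-OE pair of HSC/P libraries, against 13.7% between the double and Control Ly6G+ libraries.

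The length of a gene's annotated transcripts moved with these counts. Among genes with a transcript of 370 to 379 nt, 35.7% were 2-fold or more lower in the double library and 5.04% were higher, and among genes with one of 400 to 409 nt, 23.4% were higher and 8.28% were lower. Departures also fell into narrow bands, though not all the same ones. At 370 to 379 nt, 18.6% of genes lay above the sum and 9.11% below it, at 380 to 389 nt 26% lay below it, and at 400 to 409 nt 24.2% lay above it. Genes with a transcript of 350 to 420 nt differed 2-fold or more from Control in 26.7% of cases, but in 6.26% between the HSC/P pair. Among the 5238 genes whose annotated transcripts are all 500 nt or longer, called long genes here, the share was 7.24%, against 5.71% between the HSC/P pair. The part that transcript length plays in any single value was not tested, so results lead with long genes, and genes with a shorter transcript are marked as such.

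**Figure D1:**
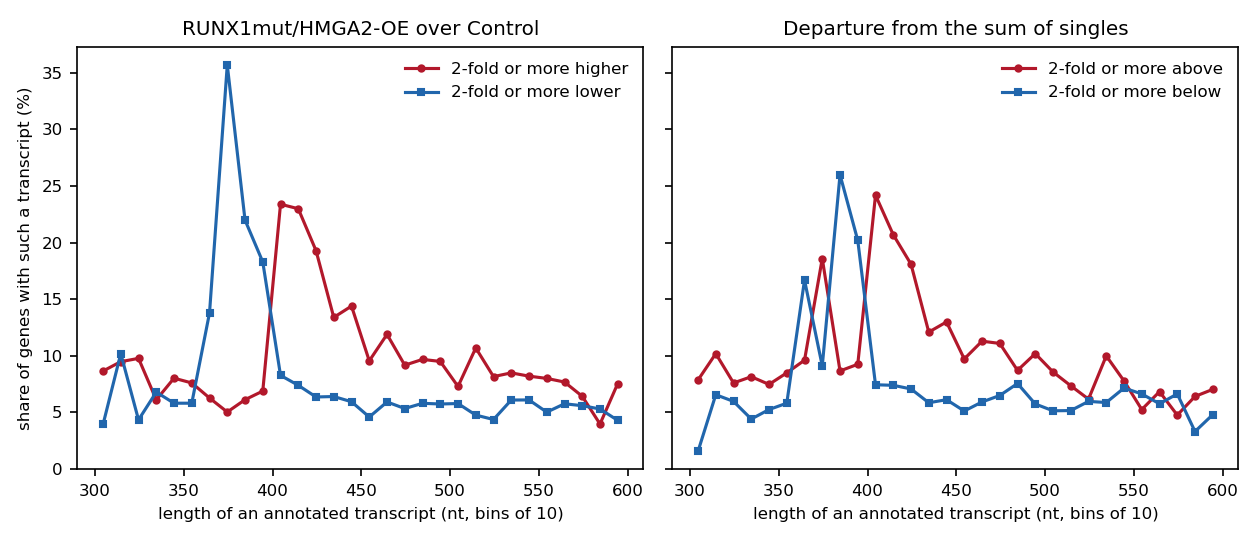
Share of counted genes with an annotated transcript in each 10 nt bin (x axis, nt) that were 2-fold or more higher or lower in RUNX1mut/HMGA2-OE than in Control (left), or 2-fold or more above or below the sum of the single ratios (right). Lower genes peak at 35.7% for 370 to 379 nt, and higher genes reach 23.4% at 400 to 409 nt.

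Among long genes, 216 (4.12%) were 2-fold or more higher in the double library and 163 (3.11%) lower. The higher genes were led by Ngfr, the stefin Stfa1, the beta-globin Hbb-bt, Abcg3 and Prg2, and the lower ones by the histone gene Hist1h4d, Lmo1, Cdc42ep2, Hist1h4c and Cldn1. Of the 216 higher genes, 152 lay within 2-fold of the sum, 30 lay 2-fold or more beyond it and 34 fell short of it by 2-fold or more. The 163 lower genes divided into 125 within the sum, 17 beyond it and 21 short of it. Over all long genes 140 (2.67%) were 2-fold or more above the sum and 114 (2.18%) below it. The double library alone was 2-fold higher in 20 long genes (0.382%) and lower in 7 (0.134%).

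**Figure D2:**
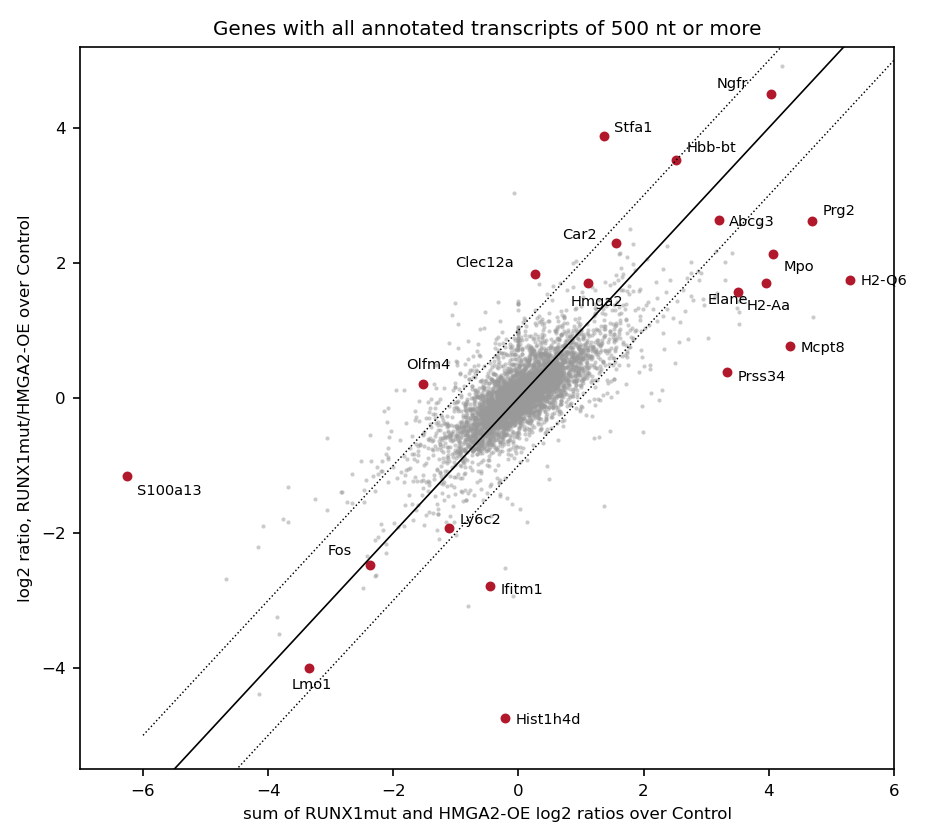
Log2 ratio of RUNX1mut/HMGA2-OE over Control (y axis) against the sum of the RUNX1mut and HMGA2-OE log2 ratios (x axis) for the 5238 long genes, 1 grey point a gene, with labelled genes in red. The solid line is the sum itself and the dotted lines are 2-fold above and below it. Stfa1 and Clec12a lie above the band and Mpo, Prg2, H2-Q6, Mcpt8 and Prss34 below it.

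The granule proteins of maturing neutrophils were close to their Control level. All 23 secondary and tertiary granule genes were counted. None was 2-fold higher and 2 were 2-fold lower, against 7.46% and 6.27% of all counted genes. The median log2 ratio was -0.23 (0.62 without scaling, under the 0.73 of all genes) and the median departure was 0.02. Ltf, which encodes lactoferrin and has a transcript under 500 nt, was at 13186 scaled TPM in Control, 12098 in HMGA2-OE, 11293 in RUNX1mut and 11440 in the double library. Camp, the cathelicidin precursor, was at 13293 scaled TPM in Control, 12907 in HMGA2-OE, 11949 in RUNX1mut and 10974 in the double library. Both differed little between the 4 libraries. The lower members were Hp, or haptoglobin, at 2114 scaled TPM in Control, 2249 in HMGA2-OE, 1104 in RUNX1mut and 982 in the double library, and Mmp25, a membrane-anchored metalloprotease, at 58.3 scaled TPM in Control, 42.1 in HMGA2-OE, 26.98 in RUNX1mut and 20.9 in the double library. Their values were low in both libraries with the RUNX1 mutation, and their departures were -0.26 and 0.11. Olfm4, a protein of a subset of neutrophil granules, stood out among them at 69.9 scaled TPM in Control, 31.3 in HMGA2-OE, 53.1 in RUNX1mut and 80.9 in the double library. It was lowest in HMGA2-OE and lay 1.73 above the sum although its ratio to Control was only 0.21.

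Surface receptors of mature neutrophils were lower more often than higher in the double library. Of 24 counted genes none was 2-fold higher and 4 were 2-fold lower, against 7.46% and 6.27% of all counted genes. Among the 19 long ones 2 were lower, against 3.11% of all long genes. The median ratio was -0.28 (0.56 without scaling, under the 0.73 of all genes). Ly6c2, a surface antigen of monocytes and granulocytes, was at 1584 scaled TPM in Control, 1483 in HMGA2-OE, 782 in RUNX1mut and 414 in the double library, a ratio of -1.93. Il1r2, the decoy receptor for interleukin-1, was at 173 scaled TPM in Control, 297 in HMGA2-OE, 75.3 in RUNX1mut and 38.9 in the double library, and Clec4e, a lectin that senses mycobacterial lipids, was at 55.5 scaled TPM in Control, 93.8 in HMGA2-OE, 17.3 in RUNX1mut and 13.2 in the double library. For these 3 genes the order of levels was the double library, RUNX1mut and then the libraries without the mutation, and Il1r2 and Clec4e have a transcript under 500 nt. Ly6g, the gene of the sorting antigen, which also has a transcript under 500 nt, was at 465 scaled TPM in Control, 387 in HMGA2-OE, 338 in RUNX1mut and 276 in the double library. Csf3r, the receptor for the granulocyte growth factor G-CSF, was at 599 scaled TPM in Control, 799 in HMGA2-OE, 407 in RUNX1mut and 387 in the double library, and Cxcr2, a receptor for neutrophil chemokines, was at 322 scaled TPM in Control, 446 in HMGA2-OE, 307 in RUNX1mut and 354 in the double library. Of these markers none was past 2-fold. Of 20 transcription factors of the neutrophil lineage 1 was 2-fold higher and none lower, against 7.46% and 6.27% of all counted genes. Their median ratio was -0.20, and Cebpe, which drives secondary granule genes, had a ratio of 0.36.

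Clec12a, an inhibitory lectin receptor of myeloid cells, was higher in the double library alone. It was at 129 scaled TPM in Control, 137 in HMGA2-OE, 145 in RUNX1mut and 463 in the double library, with a ratio of 1.84 and single ratios of 0.18 and 0.09. Among the long genes lower in the double library alone, Hist1h4d was at 72.04 scaled TPM in Control, 75.8 in HMGA2-OE, 59.1 in RUNX1mut and 1.73 in the double library. The histone H4 genes are near-identical copies. Hist1h4m, which has a transcript of 350 to 420 nt, was listed at 0 in the other 3 Ly6G+ libraries and at 84.8 scaled TPM in the double library. How reads were divided among copies bears on the values of both genes and was not examined.

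Among the primary granule genes Mpo, Elane, Prtn3 and Ctsg were 2-fold or more higher than in Control and 2-fold or more below the sum. Of 12 counted genes 5 were 2-fold higher, 1 was 2-fold lower and 5 lay 2-fold or more below the sum, with none above it. The median ratio was 0.20, with 7 members above 0 and 5 below, and the median departure was -0.86 (0.08 without scaling, where that of all genes was 0.87). Mpo (ENSMUSG00000009350, mm10 chromosome 11, 87793581 to 87804413, plus strand), the myeloperoxidase gene, was at 31.9 scaled TPM in Control, 76.4 in HMGA2-OE, 233 in RUNX1mut and 143 in the double library. The single ratios were 2.84 and 1.24, against 2.13 in the double library, a departure of -1.94. Elane, neutrophil elastase, was at 18.7 scaled TPM in Control, 38.4 in HMGA2-OE, 152 in RUNX1mut and 63.1 in the double library, and Prtn3, proteinase 3, which has a transcript under 500 nt, was at 10.8 scaled TPM in Control, 23.2 in HMGA2-OE, 57.7 in RUNX1mut and 46.7 in the double library. Ctsg, cathepsin G, was at 3.13 scaled TPM in Control, 8.34 in HMGA2-OE, 19.6 in RUNX1mut and 9.36 in the double library. All 4 were highest in RUNX1mut, intermediate in the double library and lowest in Control. Ctsc, the protease that activates the serine proteases among them, was also lowest in Control but highest in the double library. It was at 8.61 scaled TPM in Control, 17.8 in HMGA2-OE, 21.5 in RUNX1mut and 30.7 in the double library. Lyz2 (lysozyme), which is made throughout the lineage, had a ratio of 0.33. Elane and Mpo also mark granulocyte progenitors, and the summed level of 7 progenitor markers was 73.4 scaled TPM in Control, 150.1 in HMGA2-OE, 465 in RUNX1mut and 268 in the double library. Most of that sum came from Mpo, Elane and Prtn3 in every library, so it is not a readout separate from the genes above. Of the other markers, Flt3 and Myb had ratios of 0.06 and 0.42. In that sum Kit, which has a transcript under 500 nt, was not higher, at 5.84 scaled TPM in Control, 4.92 in HMGA2-OE, 3.69 in RUNX1mut and 2.76 in the double library, whereas Cd34 was at 0.301 scaled TPM in Control, 1.23 in HMGA2-OE, 7.05 in RUNX1mut and 4.75 in the double library. In bulk libraries more cells of a type and more RNA per cell cannot be told apart.

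**Figure D3:**
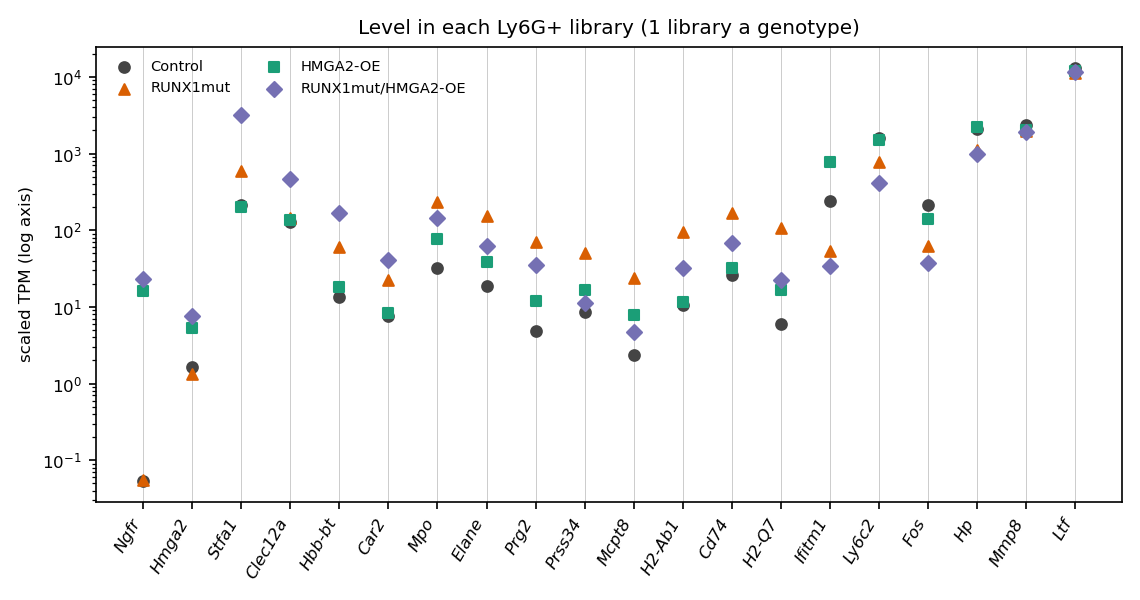
Level of 20 named genes (scaled TPM, log axis) in each of the 4 Ly6G+ libraries, 1 point a library, without error bars since each genotype has 1 library. Mpo, Elane, Prg2, Prss34, Mcpt8, H2-Ab1 and Cd74 are highest in RUNX1mut, Stfa1, Clec12a and Hbb-bt are highest in RUNX1mut/HMGA2-OE, and Mmp8 and Ltf nearly coincide.

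Promoter windows are shown for Stfa1, Hbb-bt and Mpo, long genes of the stefin, erythroid and primary granule lists. Each is the 250 bases before the RefSeq start on GRCm38.p6, 5′ to 3′ on the strand of the gene, with capitals for a RUNX core (TGTGGT) or a GATA sequence (AGATAA) on either strand. The motifs do not overlap in these windows. The Stfa1 window, chr16:36276898-36277147 on the plus strand, holds 2 of each.
Stfa1: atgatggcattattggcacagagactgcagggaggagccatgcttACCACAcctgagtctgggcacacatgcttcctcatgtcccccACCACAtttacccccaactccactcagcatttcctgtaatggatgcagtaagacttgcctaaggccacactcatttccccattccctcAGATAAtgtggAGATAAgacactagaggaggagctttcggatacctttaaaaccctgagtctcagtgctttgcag
The Hbb-bt window, chr7:103813924-103814173 on the minus strand, and the Mpo window, chr11:87793534-87793783 on the plus strand, hold neither.
Hbb-bt: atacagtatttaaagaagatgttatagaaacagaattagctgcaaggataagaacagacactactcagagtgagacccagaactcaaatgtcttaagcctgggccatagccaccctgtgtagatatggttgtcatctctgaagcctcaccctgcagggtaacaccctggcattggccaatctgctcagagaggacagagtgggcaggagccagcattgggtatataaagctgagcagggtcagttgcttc
Mpo: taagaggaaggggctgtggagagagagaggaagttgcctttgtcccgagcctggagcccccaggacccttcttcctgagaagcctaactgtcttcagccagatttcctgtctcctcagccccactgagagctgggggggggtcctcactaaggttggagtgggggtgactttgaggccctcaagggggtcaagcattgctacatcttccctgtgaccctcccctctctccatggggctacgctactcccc
Of all 32851 windows of this length in the RefSeq table, 14.1% hold the RUNX core and 9.99% the GATA sequence. Among the named-symbol long genes with a window, the RUNX core stood in 29 of 133 genes that were 2-fold higher, in 18 of 94 that were 2-fold lower and in 480 of all 3716. The GATA sequence stood in 14, 10 and 256 of the same genes. A match is a description of letters, and binding was not measured.

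The stefins, cysteine protease inhibitors of the cystatin family that mouse neutrophils make in large amounts, were far higher in the double library. Stfa1 (ENSMUSG00000071562, mm10 chromosome 16, 36276951 to 36285373, plus strand), whose annotated transcripts are all 500 nt or longer, was at 214 scaled TPM in Control, 198 in HMGA2-OE, 599.8 in RUNX1mut and 3154 in the double library. The ratio was 3.87, against single ratios of 1.48 and -0.11, so that it lay 2.51 above the sum, the largest such departure among the named long genes after S100a13. Stfa2 was at 29.7 scaled TPM in Control, 82.1 in HMGA2-OE, 229 in RUNX1mut and 1328 in the double library, Stfa3 was at 27.1 scaled TPM in Control, 47.6 in HMGA2-OE, 172 in RUNX1mut and 1444 in the double library and Stfa2l1 was at 437 scaled TPM in Control, 952 in HMGA2-OE, 669.7 in RUNX1mut and 2406 in the double library, each highest in the double library. These 3 have a transcript under 500 nt, and the stefins are near-identical copies on chromosome 16 whose shared reads were not examined. Of the 16 genes in the list of calprotectin, stefins and other abundant cytosolic proteins, 8 were 2-fold higher and 1 was 2-fold lower. The lower one was S100a8, at 493187 scaled TPM in Control, 784342 in HMGA2-OE, 395814 in RUNX1mut and 19129 in the double library, a ratio of -4.69. Its partner S100a9 was at 93856 scaled TPM in Control, 101583 in HMGA2-OE, 81478 in RUNX1mut and 88625 in the double library, a ratio of -0.08. The S100a8 transcripts are annotated at 486 and 498 nt and those of S100a9 at 512 to 519 nt, so S100a8 stands just inside the class of shorter transcripts. The median ratio of the list was 0.83, but -0.03 over its 4 long members.

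Erythroid genes were higher in the double library than in Control and, by median, above the sum. Of 24 counted genes 18 were 2-fold higher and 1 was 2-fold lower, and 8 lay 2-fold or more above the sum with none below it, for a median ratio of 1.29 and a median departure of 0.66. Over the 12 long members these medians were 1.19 and 0.71, with 10 of the 12 at least 2-fold higher. Hbb-bt (ENSMUSG00000073940, mm10 chromosome 7, 103812524 to 103813996, minus strand), an adult beta-globin, was at 13.5 scaled TPM in Control, 18.3 in HMGA2-OE, 61.2 in RUNX1mut and 165 in the double library, and its neighbour Hbb-bs, which has a transcript under 500 nt, was at 36.3 scaled TPM in Control, 41.4 in HMGA2-OE, 116 in RUNX1mut and 3082 in the double library. Hba-a1, an alpha-globin that also has a transcript under 500 nt, was at 36.999 scaled TPM in Control, 45.6 in HMGA2-OE, 126 in RUNX1mut and 365 in the double library. The globin levels were lowest in Control, about as low in HMGA2-OE, higher in RUNX1mut and highest in the double library. Long genes outside the globins showed that order as well. Car2, carbonic anhydrase 2, was at 7.61 scaled TPM in Control, 8.27 in HMGA2-OE, 22.6 in RUNX1mut and 41.2 in the double library, and Rhd, the Rh blood group antigen, was at 0.601 scaled TPM in Control, 1.24 in HMGA2-OE, 2.95 in RUNX1mut and 8.11 in the double library. Klf1, the erythroid transcription factor that activates beta-globin, was at 0.521 scaled TPM in Control, 1.22 in HMGA2-OE, 2.21 in RUNX1mut and 5.71 in the double library. Epor, the erythropoietin receptor, and Sptb, the spectrin of the red cell membrane, were past 2-fold in the double library alone, at 1.85 and 2.31 scaled TPM there. Alad, an enzyme of heme synthesis chosen by its departure of 1.03, was at 2.80 scaled TPM in Control, 2.05 in HMGA2-OE, 6.55 in RUNX1mut and 11.3 in the double library. The exception was Car1, carbonic anhydrase 1, which has a transcript under 500 nt and was at 16.7 scaled TPM in Control, 3.44 in HMGA2-OE, 2.33 in RUNX1mut and 2.46 in the double library. The summed level of 8 erythroid markers was 113 scaled TPM in Control, 120.03 in HMGA2-OE, 335 in RUNX1mut and 3672 in the double library, of which Hbb-bs made up most. The part of other cells in the sort, or of free RNA from them, was not tested.

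**Figure D4:**
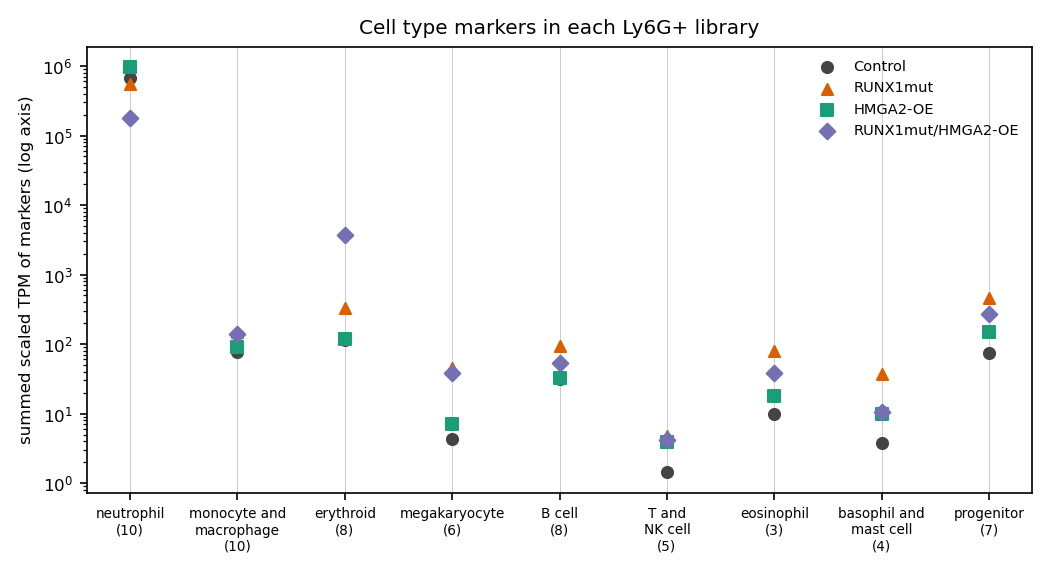
Summed scaled TPM of the markers of 9 cell types (number of markers in brackets, log axis) in each of the 4 Ly6G+ libraries. Erythroid markers reach 3672 in RUNX1mut/HMGA2-OE against 113 to 335 in the others, while the neutrophil sum is lowest there, at 179818, where S100a8 is low.

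Antigen presentation and monocyte genes were, by median, higher than Control in both libraries with the RUNX1 mutation. Of 8 counted MHC class II genes, which present peptides to CD4 T cells, 4 were 2-fold higher in the double library, and the same number lay 2-fold or more below the sum. Over all counted genes these shares were 7.46% and 4.89%. The median ratio was 0.96 in the double library, 2.17 in RUNX1mut and 0.22 in HMGA2-OE. H2-Ab1 was at 10.5 scaled TPM in Control, 11.4 in HMGA2-OE, 93.7 in RUNX1mut and 31.8 in the double library, and Cd74, the invariant chain, was at 25.7 scaled TPM in Control, 32.3 in HMGA2-OE, 166 in RUNX1mut and 68.3 in the double library. Both were highest in RUNX1mut, and the double library lay between it and the libraries without the mutation. Cd86, a co-stimulatory ligand, was instead highest in the double library, at 5.84 scaled TPM in Control, 7.52 in HMGA2-OE, 17.2 in RUNX1mut and 28.04 in the double library. Of 27 monocyte and macrophage genes 10 were 2-fold higher and 1 lower, against 7.46% and 6.27% of all counted genes, with a median ratio of 0.75. F13a1, coagulation factor XIII of monocytes, was at 1.96 scaled TPM in Control, 6.27 in HMGA2-OE, 6.85 in RUNX1mut and 9.13 in the double library, and C1qa, a complement subunit of macrophages, was at 3.31 scaled TPM in Control, 4.75 in HMGA2-OE, 9.65 in RUNX1mut and 8.74 in the double library. The 10 monocyte and macrophage markers summed to 77.7 scaled TPM in Control, 90.3 in HMGA2-OE, 148 in RUNX1mut and 139 in the double library, and none was at 0.

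The summed platelet and B cell markers were low in Control and higher in both libraries with the mutation. Of 18 megakaryocyte and platelet genes 8 were 2-fold higher and 1 lower in the double library, with a median ratio of 0.65, which turned to -0.14 over members with 1 TPM or more in all 4 libraries. Pf4, platelet factor 4, which has a transcript under 500 nt, was at 1.48 scaled TPM in Control, 2.90 in HMGA2-OE, 18.5 in RUNX1mut and 21.97 in the double library. The lower member was Itgb3, the platelet integrin beta 3, at 14.98 scaled TPM in Control, 7.93 in HMGA2-OE, 5.22 in RUNX1mut and 3.38 in the double library. The 6 markers summed to 4.31 scaled TPM in Control, where Ppbp and Treml1 were at 0, to 6.99 in HMGA2-OE, to 44.9 in RUNX1mut and to 38.8 in the double library. Among them Gp1bb, a subunit of the platelet receptor for von Willebrand factor, was at 0.912 scaled TPM in Control and 0.531 in the double library, below the inclusion threshold of 1 TPM. Of 22 B-lineage genes 2 were 2-fold higher and none lower, against 7.46% and 6.27% of all counted genes, and none of the 14 long ones was past 2-fold, with a median ratio of 0.51. The summed B cell markers were 31.9 scaled TPM in Control, 33.01 in HMGA2-OE, 92.5 in RUNX1mut and 54.2 in the double library. The 5 T and NK cell markers summed to between 1.42 and 4.78 scaled TPM in all 4 libraries. Of 15 genes of the Ms4a, Gimap and protease inhibitor families 10 were 2-fold higher, none lower and 5 lay 2-fold or more below the sum. Serpina3g, an intracellular protease inhibitor of hematopoietic cells, was at 0.845 scaled TPM in Control, 1.74 in HMGA2-OE, 17.1 in RUNX1mut and 10.04 in the double library, and Gimap9, a GTPase of lymphocytes, was at 5.49 scaled TPM in Control, 6.47 in HMGA2-OE, 13.9 in RUNX1mut and 15.7 in the double library.

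Eosinophil, basophil and mast cell genes lay below the sum. Of 17 counted genes 8 lay 2-fold or more below the sum and none above it, against 4.89% and 7.42% of all counted genes. The median departure was -0.73 (0.03 without scaling, where that of all genes was 0.87), and 6 of the 8 were long. Against Control 6 were 2-fold higher and 1 was lower. Mcpt8, a basophil protease, was at 2.33 scaled TPM in Control, 7.95 in HMGA2-OE, 24.1 in RUNX1mut and 4.70 in the double library, which was -3.56 from the sum. Prss34, another basophil protease, was at 8.50 scaled TPM in Control, 16.6 in HMGA2-OE, 50.8 in RUNX1mut and 11.3 in the double library. Both were raised in RUNX1mut and, by less, in HMGA2-OE, and the double library was close to Control or HMGA2-OE. Prg2, the eosinophil major basic protein, was at 4.91 scaled TPM in Control, 11.8 in HMGA2-OE, 69.6 in RUNX1mut and 35.3 in the double library, a ratio of 2.62 and a departure of -2.08. Ear2, an eosinophil ribonuclease also made by other myeloid cells, was lower, at 96.9 scaled TPM in Control, 96.5 in HMGA2-OE, 53.7 in RUNX1mut and 33.3 in the double library. The 4 basophil and mast cell markers summed to 3.75 scaled TPM in Control, 9.89 in HMGA2-OE, 36.7 in RUNX1mut and 10.6 in the double library, and the 3 eosinophil markers to 9.75, 18.2, 78.2 and 38.9 in the same order.

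Interferon-induced genes and MHC class I were near Control in the double library and below the sum. Among 27 interferon response genes 3 were 2-fold higher and 1 lower than Control, against 7.46% and 6.27% of all counted genes. A departure under 0 was found for 25, and 8 of these were 2-fold or more below, against 5277 and 541 of all 11053 counted genes. The median ratio was 0.02 in the double library, 0.32 in RUNX1mut and 0.36 in HMGA2-OE, and the median departure was -0.57 (0.40 without scaling, where that of all genes was 0.87). Ifitm1, an interferon-induced membrane protein that restricts virus entry, was at 242 scaled TPM in Control, 784 in HMGA2-OE, 53.9 in RUNX1mut and 34.2 in the double library, high in HMGA2-OE and low in both libraries with the mutation. Oasl2 was at 62.3 scaled TPM in Control, 66.1 in HMGA2-OE, 64.9 in RUNX1mut and 32.3 in the double library. Only the double library was low after scaling, whereas on unscaled TPM HMGA2-OE was the lowest. Oas1g, an oligoadenylate synthetase chosen by its departure of -2.09, was at 6.45 scaled TPM in Control, 30.7 in HMGA2-OE, 19.2 in RUNX1mut and 19.2 in the double library. Of 16 MHC class I and peptide loading genes 3 were 2-fold higher, 1 was lower, 6 lay 2-fold or more below the sum and 1 above it. Of all counted genes 4.89% lay below it and 7.42% above it. H2-Q7, a non-classical class I molecule, was at 6.05 scaled TPM in Control, 16.7 in HMGA2-OE, 106 in RUNX1mut and 22.2 in the double library, a departure of -3.54. The near-identical H2-Q6 was at 5.80 scaled TPM in Control, 15.5 in HMGA2-OE, 109.9 in RUNX1mut and 21.8 in the double library, and reads shared by the copies were not examined. B2m, the light chain of class I, was at 751 scaled TPM in Control, 992 in HMGA2-OE, 1088 in RUNX1mut and 759.6 in the double library. After scaling it was thus higher in each single library and near Control in the double one, whereas on unscaled TPM the double library was the highest.

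Among the early response genes, Fos, a subunit of the AP-1 transcription factor, was at 216 scaled TPM in Control, 140.4 in HMGA2-OE, 62.8 in RUNX1mut and 37.9 in the double library, a ratio of -2.48 that lay -0.10 from the sum. Dusp1, a MAP kinase phosphatase with a transcript under 500 nt, was at 386 scaled TPM in Control, 358 in HMGA2-OE, 167 in RUNX1mut and 127 in the double library, and Osm, the cytokine oncostatin M, was at 91.1 scaled TPM in Control, 79.3 in HMGA2-OE, 50.95 in RUNX1mut and 39.8 in the double library. All 3 had departures within 0.5 of 0. Il1b, interleukin-1 beta, which has a transcript under 500 nt, was at 670.2 scaled TPM in Control, 3355 in HMGA2-OE, 717 in RUNX1mut and 259 in the double library, high in HMGA2-OE and lowest in the double library. Over 19 immediate early and heat shock genes 2 were 2-fold higher and 2 lower, against 7.46% and 6.27% of all counted genes. The higher members, named after their values were seen, were Dusp2, another MAP kinase phosphatase, at 1.93 scaled TPM in Control, 3.28 in HMGA2-OE, 4.24 in RUNX1mut and 5.95 in the double library, and Hsph1, a heat shock protein with a transcript under 500 nt, at 0.319 scaled TPM in Control, 0.841 in HMGA2-OE, 1.23 in RUNX1mut and 6.11 in the double library. The list had a median ratio of -0.32 (0.40 without scaling, under the 0.73 of all genes). Of 14 chemokines and chemokine receptors 5 lay 2-fold or more below the sum and none above it, against 4.89% and 7.42% of all counted genes. Among the 5 was Ccl5, a chemokine that attracts T cells, at 1.72 scaled TPM in Control, 5.23 in HMGA2-OE, 13.2 in RUNX1mut and 6.70 in the double library.

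Growth and metabolic genes differed less. As a background, 7.46% of all counted genes were 2-fold higher and 6.27% lower, and a count near those shares sets no list apart. Of 21 ribosome biogenesis genes 6 were 2-fold higher and none lower, with a median ratio of 0.66 in both the double and the RUNX1mut library. All 6 have a transcript under 500 nt, and the 7 long members had a median of 0.53 with none past 2-fold. Ncl, which encodes nucleolin, was at 5.29 scaled TPM in Control, 5.31 in HMGA2-OE, 9.04 in RUNX1mut and 8.90 in the double library. Of 46 ribosomal protein genes 4 were 2-fold higher and 5 lower, but none of the 10 long ones was past 2-fold. The 13 mitochondrially encoded genes had a median ratio of 0.56 with none past 2-fold. Cholesterol and fatty acid synthesis genes had a median ratio of -0.52 over 20 members (0.16 without scaling, under the 0.73 of all genes), with 3 of them 2-fold lower. Of 35 cell cycle genes none was 2-fold higher and 2 were lower, both with a transcript under 500 nt, and Pcna, the sliding clamp of DNA replication, had a ratio of 0.58. None of 26 proteasome genes was past 2-fold.

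**Figure D5:**
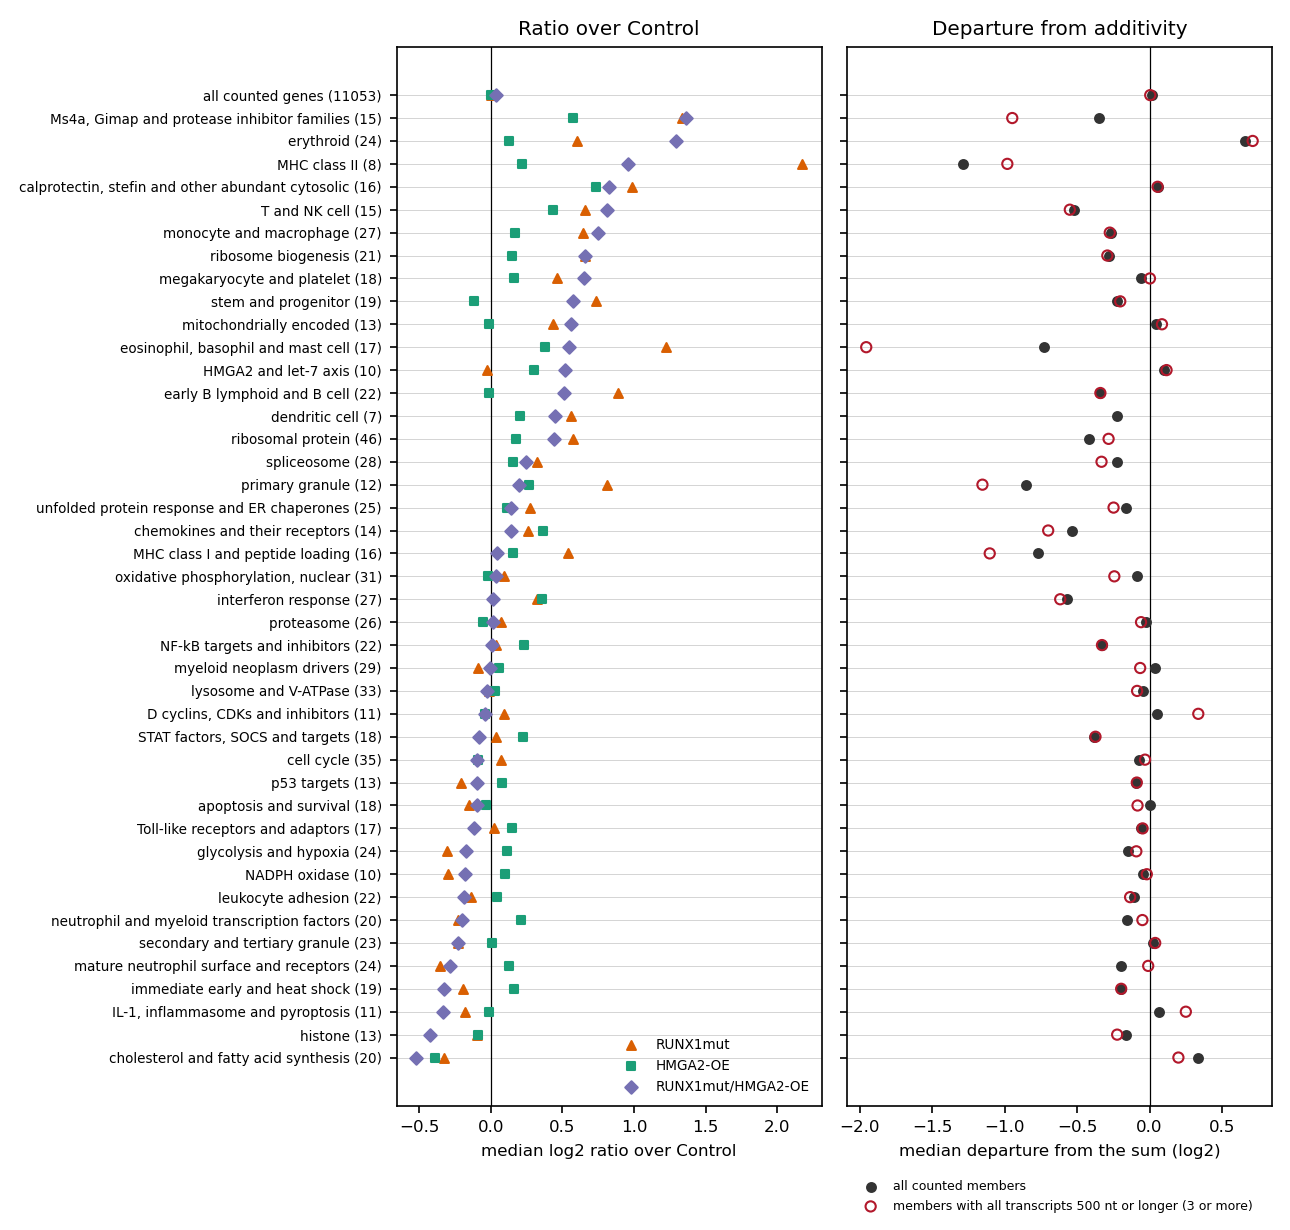
Median log2 ratio over Control in the single-genotype and double libraries (left) and median departure from the sum (right) for each gene list with 7 or more counted genes (number in brackets), and for all counted genes on top. Erythroid genes have the highest median departure, at 0.66, and MHC class II the lowest over all counted members, at -1.29. Without scaling all medians move up by close to the shift of all genes, so that most lists under 0 here, MHC class II not among them, turn positive.

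Several long genes outside these lists carried large values. Ngfr, the low-affinity nerve growth factor receptor, was at 0.0536 scaled TPM in Control, 16.3 in HMGA2-OE, 0.0558 in RUNX1mut and 22.96 in the double library. It was thus present in both Ly6G+ libraries labelled HMGA2-OE and near 0 in the other Ly6G+ ones, with a departure of 0.47. Asprv1, an aspartic protease, was at 76.3 scaled TPM in Control, 367 in HMGA2-OE, 66.6 in RUNX1mut and 321 in the double library, and Abcg3, a membrane transporter, was at 1.51 scaled TPM in Control, 13.9 in HMGA2-OE, 2.91 in RUNX1mut and 14.6 in the double library. Both were high in the libraries labelled HMGA2-OE, and the double library was within 0.6 of the sum in log2 terms. Penk, the enkephalin precursor, instead moved with the mutation, at 4.28 scaled TPM in Control, 1.71 in HMGA2-OE, 35.8 in RUNX1mut and 24.6 in the double library. Lmo1, a LIM-only transcription cofactor, was at 19.2 scaled TPM in Control, 8.96 in HMGA2-OE, 2.99 in RUNX1mut and 0.254 in the double library, and Cdc42ep2, an effector of the GTPase CDC42, was at 19.2 scaled TPM in Control, 3.19 in HMGA2-OE, 5.71 in RUNX1mut and 1.13 in the double library. For both, each single library was lower than Control and the double library lower still. Tnfsf13b, the B cell survival factor BAFF, was at 63.7 scaled TPM in Control, 57.3 in HMGA2-OE, 26.9 in RUNX1mut and 18.9 in the double library, and Ada, adenosine deaminase, was at 23.7 scaled TPM in Control, 17.3 in HMGA2-OE, 15.1 in RUNX1mut and 7.18 in the double library. S100a13, which had the largest departure above the sum among the named long genes, was at 33.2 scaled TPM in Control, 0.00376 in HMGA2-OE, 14.2 in RUNX1mut and 14.3 in the double library. Its departure of 5.10 thus came with a value near 0 in HMGA2-OE, and the double library equalled RUNX1mut.

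The most extreme values over all counted genes belonged mostly to genes with short transcripts. Of the 20 largest rises, 15 have a transcript of 350 to 420 nt and 18 have one under 500 nt, and of the 20 largest falls the numbers are 17 and 19. Of the 15 genes farthest above and the 15 farthest below the sum, 13 and 14 have a transcript of 350 to 420 nt, against 24.6% of all counted genes. Rps12, Atp5k, Grb2 and Atp5mpl, described next, all have a transcript under 500 nt. Rps12, a ribosomal protein, was listed at 0 in the other 3 Ly6G+ libraries and at 47.0 scaled TPM in the double library. Between the RUNX1mut/HMGA2-OE pair of HSC/P libraries it also went from near 0 (7.52e-09) to 69.9 TPM, unscaled, within 1 genotype. Atp5k, an ATP synthase subunit, was at 930.5 scaled TPM in Control, 9.58 in HMGA2-OE, 631 in RUNX1mut and 9.06 in the double library. Grb2, a signalling adaptor, was at 2655 scaled TPM in Control, 48.7 in HMGA2-OE, 967 in RUNX1mut and 39.1 in the double library. Both were low in the Ly6G+ libraries labelled HMGA2-OE. In the HSC/P libraries, all labelled HMGA2-OE too, Atp5k was at 470 to 634 TPM and Grb2 at 160 to 198 TPM, unscaled. Atp5mpl, a small ATP synthase protein, was at 25.3 scaled TPM in Control, 21.9 in HMGA2-OE, 7667 in RUNX1mut and 21.6 in the double library, so that a value high in RUNX1mut alone gave the lowest departure among the named genes, -8.21. Genes at the threshold of inclusion had a higher median ratio than the 0.03 of all counted genes. With 1 TPM added to such low values, their range is limited in advance and cannot be compared with the rest. The 220 genes whose higher value lay from 1 to 1.1 TPM had a median ratio of 0.23 (range -1.16 to 0.75), and the 215 left out at 0.9 to under 1 TPM had one of 0.17 (range -1.07 to 0.70).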

How the data were processed

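RNA was sequenced in 7 libraries, of which the 4 Ly6G+ ones, 1 a genotype, are compared. The submitters' processing notes name bcl2fastq, CASAVA 1.8, kallisto and the build mm10, while the annotation and kallisto version are not stated there. The values deposited by the authors are TPM, a unit read from the table itself (not whole numbers, near-equal column totals), so counts and depth are unknown and no counting error can be given. Symbols, coordinates and transcript lengths came from GENCODE M21 for 27475 identifiers. Identifiers without one took up to 1.69% of the TPM of a Ly6G+ library. Of the counted genes 177 had no symbol there.

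The scaling was a trimmed mean of log ratios to Control, unweighted (trims 0.3 and 0.05), over 9820 genes with 1 TPM or more in at least 2 Ly6G+ libraries, which multiplied TPM by 1.12 in Control, 1.44 in HMGA2-OE, 0.993 in RUNX1mut and 0.625 in the double library. The ratio, the departure and the 2-fold threshold use log2 of scaled TPM with 1 TPM added. A gene past 2-fold in the double library alone had a ratio and departure of at least 1 one way and single ratios within 0.5 of 0. The calculation was checked on simulated data. Python 3.11.15, pandas 2.3.3, numpy 2.4.6 and matplotlib 3.10.9 were used.

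The members and the 44 gene lists were chosen with earlier results of these data known, and no list serves as independent support. The rule names Hmga2, Runx1, the 20 largest rises and falls and the 15 largest departures each way among genes at 10 TPM or more, and up to 6 members of a list. Repeating the rule within long genes, and naming markers or genes for their role or for passing in the double library alone, was decided after values were seen. Counts include 1048 clone names and pseudogenes, which are not named. Some genes that the rule names are counted but left out of the text. The RefSeq promoter table gave the windows shown. Other scalings, added values, filters and thresholds were tried.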

Additional observations from a re-analysis of the deposited data

Results flagged for a closer look

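For 5 long genes, adding 1 genotype moved the scaled level 2-fold or more one way on one background. On the other background it moved 2-fold or more the other way. With 1 library a genotype these differences were not tested. They come from a search of long genes at 10 TPM or more in at least 1 Ly6G+ library. Clone names and pseudogenes were left out, so the search covered only a part of the 5238 long genes. Elane, neutrophil elastase, differed by 1.0 (log2) between HMGA2-OE and Control, and by -1.26 between RUNX1mut/HMGA2-OE and RUNX1mut. The same differences were 1.43 and -2.14 for the basophil protease Mcpt8. They were 1.28 and -2.28 for H2-Q6 and 1.33 and -2.21 for H2-Q7, near-identical class I genes that cannot be counted as separate cases. S100a13, a calcium-binding protein, differed by -1.17 between RUNX1mut and Control, and by 3.93 between RUNX1mut/HMGA2-OE and HMGA2-OE. Its value in HMGA2-OE was near 0, so the second difference rests on the 1 TPM added and is not a fold. The set depends on the scaling. On unscaled TPM with 1 TPM added, only Mcpt8 among these genes stayed past 2-fold both ways. Elane, just at the threshold after scaling, then fell short of 2-fold on both backgrounds. H2-Q6 and H2-Q7 fell short for HMGA2-OE against Control, and S100a13 narrowly so for RUNX1mut against Control.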

How the results depend on the processing

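Each genotype had 1 library, so no replicate could be left out. No paired analysis was possible because each Ly6G+ group holds 1 library, so the groups share fewer than 2 replicate numbers, and those were given in accession order. The counts below are given as genes 2-fold higher, lower, above the sum and below the sum, then higher and lower in the double library alone, and stand beside 825, 693, 820, 541, 202 and 27, with values within 1.5 times of those left out. Without scaling the first 4 were 3068, 396, 4057 and 252, and 880 were higher in the double library alone. Rescaling without S100a8 and S100a9 gave 1238 higher. With 0.1 TPM added 1605 were higher, 1334 above and 879 below the sum, and with 5 TPM added the first 4 were 301, 384, 333 and 315 and 101 were higher in the double library alone. A filter of 5 TPM in either library left 505 above and 358 below the sum and 126 higher in the double library alone. A filter of 1 TPM in all 4 libraries left 406 higher, 440 lower and 367 above the sum, with 82 higher and 17 lower in the double library alone. Long genes alone gave 216, 163, 140, 114, 20 and 7. A 4-fold threshold gave 189, 246, 225, 211, 57 and 6. Fewer genes enter under the filters, and the cause of the other shifts was not tested.

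Among list medians, those that changed sign without scaling were the departures of primary granule (0.082), chemokine (0.20), interferon response (0.40), MHC class I (0.13), eosinophil, basophil and mast cell (0.033) and T and NK cell genes (0.11), and the ratio of cholesterol and fatty acid synthesis genes (0.16), where the median of all genes moved to 0.87 for departures and 0.73 for ratios. Smaller medians also cross 0 there. The ratio of stem and progenitor genes turned to -0.42 with a filter of 5 TPM and to -0.45 with 1 TPM in all 4 libraries, where eosinophil, basophil and mast cell genes turned to -0.21 and megakaryocyte genes to -0.14. The ratio of the calprotectin and stefin list turned to -0.028 without genes whose longest transcript is under 500 nt. The cause was not tested. The genes recomputed under each setting were those that the rule names, over all counted genes and within long genes. None of these that was past 2-fold reversed under any setting tried. Other genes in the text, among them Klf1, Cd34, Stfa2l1, Epor, Sptb, Dusp2 and Hsph1, were not recomputed. Of the counts, 48 of 82 recomputed ones stayed within 1.5 times. Scaling over long genes only, chosen after seeing the data, and centring on the median moved no count by more. TPM keeps no depth, so the precision of low genes is unknown.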
